A study of Mus musculus with 34 samples.

Results

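The effect of the farnesyltransferase inhibitor lonafarnib at the midpoint of treatment was compared between 2 mouse leukaemia lines, 8093 and Bin-2. The quantity reported is the change of Bin-2 (midpoint minus start) minus the change of 8093, in log2 units, and it used 12 of the 34 arrays of the study, 3 in each of 4 groups. A positive difference means that a gene moved upward in Bin-2 relative to 8093, and a negative difference the reverse. Both lines are pre-B acute lymphoblastic leukaemias from mice transgenic for BCR/ABL. Line 8093 comes from an inbred C57BL/6J mouse and Bin-2 from a mouse of mixed background, so that each background is represented by 1 leukaemia. In the 8093 groups RNA was taken before drug (day 0) and on day 4 of 1 µM lonafarnib, when 20% of cells were viable. In the Bin-2 groups it was taken on day 0 and on day 3 of 0.25 µM lonafarnib, when 5 to 10% were viable. Line, dose, day and viability therefore cannot be told apart in this comparison. All cultures were kept in medium with IL-3 over irradiated mouse embryonic fibroblasts, and floating or loosely attached cells were collected. Replicates were separate plates, and midpoint samples came from a larger dish or from pooled dishes to obtain enough cells. The remaining arrays hold the nilotinib courses of both lines (20 nM in 8093 and 50 nM in Bin-2) and the drug-tolerant cells at the end of each course.

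BCR/ABL is a constitutively active tyrosine kinase that drives proliferation and survival through STAT5, Ras and PI3K signalling in Philadelphia chromosome-positive leukaemia. Farnesyltransferase attaches a farnesyl lipid, made by the cholesterol synthesis pathway, to a cysteine near the end of Ras, Rheb, lamins and the kinetochore proteins CENP-E and CENP-F. Lonafarnib blocks that step. The transcripts of the enzyme and its substrates are not its direct target, so a change in transcript level is not a measure of farnesylation.

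The labelled cell type was borne out in all 4 groups by high signal of the surrogate light chain genes Igll1 and Vpreb1, which averaged 12.20 and 10.34 at the 8093 start, and of the B-lineage factor genes Ebf1 (10.04) and Pax5 (8.54). Blnk, the adaptor gene that links the pre-B receptor to its effectors, was low in 8093, with 4.40 at the start and a level 5.16 higher in Bin-2. Mean log2 signal over the 33 measured genes of a pre-B list was 8.37 to 8.40 on the 8093 start arrays and 8.42 to 8.50 on the Bin-2 start arrays, against a median of 5.45 over all genes. At the midpoint it was 8.26 to 8.31 in 8093 and 8.11 to 8.24 in Bin-2. Among members nearer the median, Spib and Rasgrp3 averaged 5.53 and 5.73 at the Bin-2 midpoint. The arrays differed in their spread. The interquartile range of an array averaged 3.57 at the 8093 start, 3.43 at its midpoint, 3.45 at the Bin-2 start and 3.11 at the Bin-2 midpoint, where replicate 2 was lowest at 2.92. A narrower range pulls bright and dim genes toward the middle, and rescaled values are given for many of the list counts that shift on rescaling the arrays. A count printed without them is not thereby shown to be stable. RNA of dying and of viable cells was collected together, and in such bulk samples fewer cells of a type and less RNA per cell cannot be told apart.

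Among 19938 genes, 838 (4.20%) differed between the lines in their midpoint change at an adjusted p below 0.05 (limma, Benjamini-Hochberg over all genes), and such genes are referred to as called. The difference was positive in 168 genes (0.843%) and negative in 670 (3.36%). The 838 became 516 without midpoint replicate 1 of 8093, 530 without its start replicate 3 and 445 with a term for the replicate number. At least 2-fold differences were found in 251 of the 838 (1.26% of genes), 48 positive (0.241%) and 203 negative (1.02%). The share of positive calls depended on the scaling of the arrays: it was 20.0% with the deposited values, 34.3% after quantile normalization (236 positive and 452 negative) and 47.2% after scaling to one interquartile range (391 and 437). The 8093 line by itself had 2150 called genes (10.8%), 775 upward (3.89%) and 1375 downward (6.90%). Leaving out start replicate 1 lowered that number to 1123, and leaving out midpoint replicate 3 to 1252. Bin-2 had 3287 (16.5%), of which 887 rose (4.45%) and 2400 fell (12%), and that total dropped to 1891 after quantile normalization and to 1930 without midpoint replicate 2 of Bin-2.

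The difference is built from both changes, so the following counts describe its make-up and test nothing further. Of the 670 genes with a negative difference, 295 were called as fallen in Bin-2 and not called in 8093, 252 were called as risen in 8093 and not called in Bin-2, and 83 rose in 8093 and fell in Bin-2. A further 5 fell in both lines, 5 rose in both and 30 were called in neither. Of the 168 genes with a positive difference, 93 were called as fallen in 8093 and 61 as risen in Bin-2 with no call in the other line, and 5 moved in opposite directions. Another 591 genes fell in both lines and 93 rose in both with no call for the difference. The median change of the negative genes was 0.40 in 8093 and -0.43 in Bin-2, and that of the positive genes -0.53 and 0.30.

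**Figure D1:**
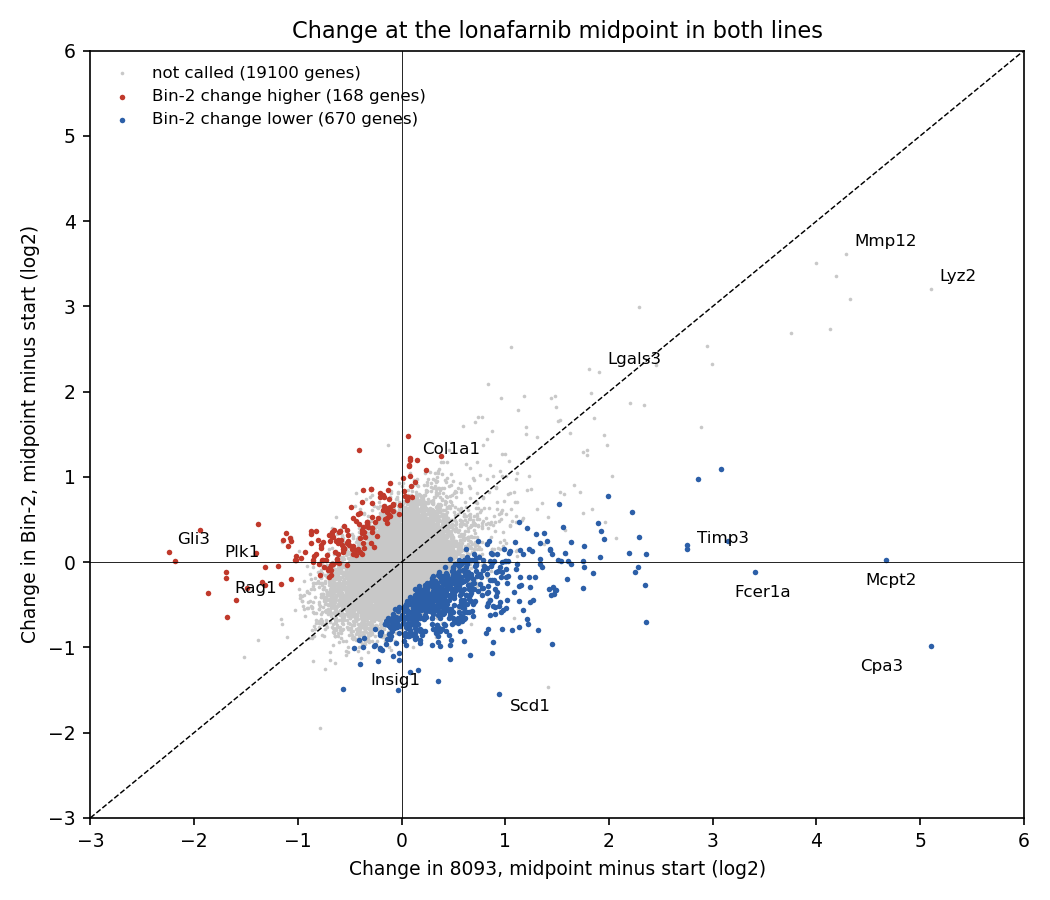
Change at the lonafarnib midpoint of each of 19938 genes in 8093 (horizontal axis, log2) and in Bin-2 (vertical axis, log2), with the dashed line marking equal change. Genes with a called positive difference (168, red) lie above the line and those with a called negative difference (670, blue) below it. Cpa3, at a change of 5.11 in 8093 and -0.98 in Bin-2, lies farthest from it among the labelled genes.

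The largest differences belonged to genes of mast cells, the tissue cells that store proteases and histamine and carry the high-affinity IgE receptor. Of 19 measured mast cell and basophil genes, 11 were called lower in Bin-2 and 0 higher, with a median difference of -1.57 against -0.01 over all genes. In 8093, 12 of the 19 rose and 0 fell (median 1.75), whereas in Bin-2 0 rose and 2 fell, Cpa3 and Mcpt8 (median 0.03). Cpa3, which encodes carboxypeptidase A3 of mast cell granules, had log2 signals of 4.67, 4.61 and 4.57 at the 8093 start and 10.43, 9.01 and 9.74 at its midpoint. In Bin-2 its signals were 6.09, 6.30 and 6.26 at the start and 5.23, 5.02 and 5.47 at the midpoint. The change was thus a 34.5-fold rise in 8093 and a fall to 0.507 of the start in Bin-2, a difference of -6.09 ± 0.36 (SE, n = 3 arrays a group, limma adjusted p = 5.02e-12).

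The chymase gene Mcpt2 rose from 2.67, 2.38 and 2.74 to 8.83, 5.81 and 7.16 in 8093 and read 2.94, 3.61 and 2.61 and then 2.83, 3.54 and 2.87 in Bin-2 (difference -4.64 ± 0.75, adjusted p = 0.000238). Fcer1a, the IgE-binding chain of the receptor, went from 2.83, 3.10 and 3.60 to 7.52, 5.70 and 6.53 in 8093, and from 3.37, 3.81 and 3.29 to 3.11, 3.90 and 3.11 in Bin-2 (-3.52 ± 0.49, adjusted p = 3.77e-05). In each of these genes the 3 midpoint arrays of 8093 lay above all other arrays of the comparison. Every other array of Mcpt2 and Fcer1a, and likewise of Mcpt1, lay under the lower quartile of all genes, 4.08. The size of the differences of these genes therefore rests on signals near background. Mcpt1 (-2.90), Mcpt4 (-2.55), the IgE receptor beta chain gene Ms4a2 (-2.08), the tryptase gene Tpsb2 (-2.01), the chymase gene Cma1 (-1.98), the vesicular monoamine transporter gene Slc18a2 (-1.74) and Cyp11a1 (-1.57) were called in the same direction. Kit, the stem cell factor receptor, rose from 5.67, 5.75 and 5.65 to 7.39, 6.69 and 7.0 in 8093. It stood at 7.66, 7.77 and 7.37 before drug in Bin-2 and at 7.58, 7.57 and 7.59 at the midpoint, so that the lines drew closer (-1.36 ± 0.25, adjusted p = 0.00121).

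Within 8093 the mast cell genes varied together between plates. The mean of the list was 4.39 to 4.51 on the start arrays and 6.75, 5.62 and 6.06 on midpoint arrays 1, 2 and 3, while the Bin-2 arrays stayed between 4.70 and 4.94 at the start and between 4.71 and 4.87 at the midpoint. The number of members called remained 11 when any 1 array was left out. Mcpt1 lost its call when the fit was restricted to the 12 arrays of the comparison (adjusted p = 0.053) and with the replicate term (adjusted p = 0.0591). The labels give no sort of the leukaemia cells, and the part of other haematopoietic cells in these values was not tested. Gzmb, a granule protease gene of cytotoxic cells that mast cells can also express, differed as well (-1.73 ± 0.25, adjusted p = 5.01e-05) and was the single call among 18 measured T and NK cell genes.

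**Figure D2:**
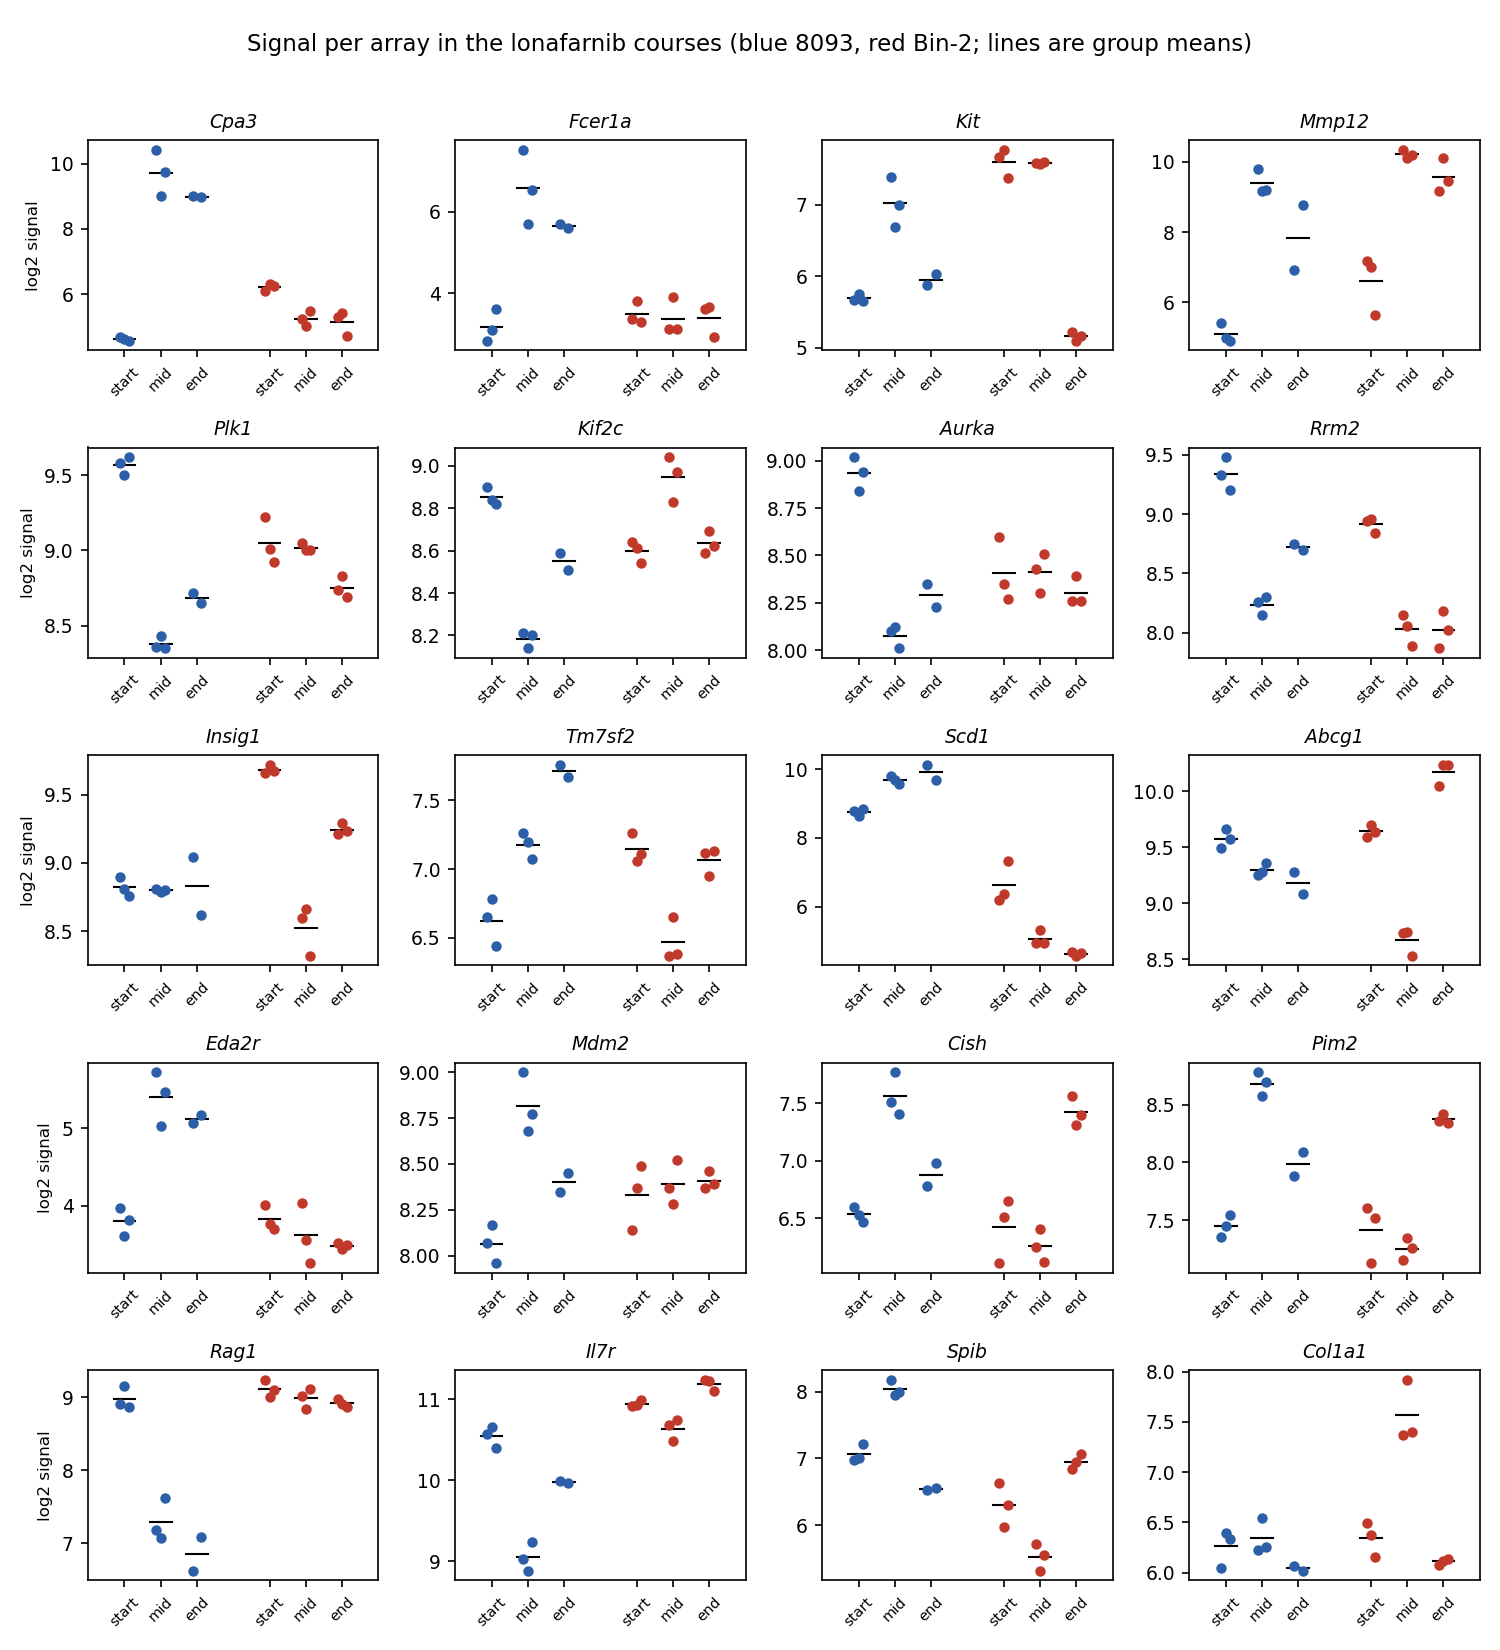
Log2 signal of 20 genes on each array of the lonafarnib courses, with 8093 in blue and Bin-2 in red at the start, midpoint and end, and group means as black lines (3 arrays a group, 2 at the 8093 end). Cpa3 and Fcer1a climbed in 8093 and did not in Bin-2, Plk1 dropped in 8093 alone among the midpoint groups, Insig1 dropped in Bin-2, and Mmp12 rose in both lines.

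Macrophage genes, in contrast, were called as risen in both lines. Of 20 measured members, 7 rose in 8093 and 8 in Bin-2, and 1 differed between the lines. The mean over the list went from 5.08 to 5.16 at the start to 6.00 to 6.78 at the midpoint in 8093, and from 5.72 to 6.07 up to 6.84 to 7.11 in Bin-2. The macrophage elastase gene Mmp12 rose by 4.29 in 8093 and by 3.61 in Bin-2 (difference -0.68 ± 0.60, adjusted p = 0.621). The lysozyme gene Lyz2 rose by 5.11 and 3.20, a difference of -1.91 ± 0.76 that was not called (adjusted p = 0.168). Gpnmb, Clec4n, Ccl6 and Lilr4b, genes of phagocytes, rose in both lines by between 2.73 and 4.32. The exception was the colony stimulating factor 1 receptor gene Csf1r, which started low in 8093 (4.89, 4.73 and 4.34) and rose to 6.57, 5.93 and 5.78, while in Bin-2 it read 7.47, 7.20 and 7.47 and then 7.04, 6.80 and 7.13. Its difference of -1.83 ± 0.47 (adjusted p = 0.0215) lost the call after quantile normalization and without 8093 start replicate 3, 8093 midpoint replicate 1, Bin-2 start replicate 3 or Bin-2 midpoint replicate 2 (highest adjusted p 0.0875).

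Fibroblast genes, which mark the feeder cells, rose in Bin-2. Of 30 measured members, 14 rose in Bin-2 (10 under either rescaling) and 2 in 8093 (Timp3 and Thbs1). For the difference 3 were called higher and 2 lower (median 0.33), and 7 were called higher under either rescaling. The type I collagen gene Col1a1 rose in Bin-2 from 6.49, 6.38 and 6.16 to 7.37, 7.92 and 7.40 and read 6.05, 6.40 and 6.34 and then 6.23, 6.54 and 6.26 in 8093 (1.14 ± 0.18, adjusted p = 0.000194). Acta2 and Loxl1 were called as well and lost the call without 8093 start replicate 2, 8093 midpoint replicate 1 or Bin-2 midpoint replicate 2, which left 1 positive call in the list. Both negative calls, Timp3 (-2.60 ± 0.22, adjusted p = 9.45e-09) and Thbs1 (-2.36 ± 0.43, adjusted p = 0.00106), rose in 8093. Timp3, a tissue inhibitor of metalloproteinases, went from 5.29, 5.24 and 5.43 to 8.31, 7.94 and 7.96 in 8093 and from 5.07, 4.83 and 4.64 to 5.15, 4.87 and 4.99 in Bin-2. It is also made by cells other than fibroblasts, as is the thrombospondin gene Thbs1.

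Genes of mitosis were lowered in 8093 and were not lowered in Bin-2. Of 31 measured members, 14 were called higher in the difference and 0 lower, with a median of 0.58. In 8093, 21 fell and 1 rose (Nek2, by 0.41), while in Bin-2 3 rose (Nek2, Cenpf and Kif2c) and 0 fell. The list mean dropped from between 8.69 and 8.78 to between 8.23 and 8.29 in 8093, and was 8.50 to 8.64 and then 8.54 to 8.71 in Bin-2. The direction was the same after quantile normalization (16 higher) and scaling (21 higher), although in Bin-2 the members called as risen then numbered 8 and 14. Those called as fallen in 8093 numbered 16 and 15 under these rescalings. With a term for the replicate number 6 were called. The change of each midpoint array from the mean start of its line did not overlap between lines in 24 of 31 members, each higher in Bin-2, against 34.5% of all genes in either direction and 14.5% in that one. At the start 9 of the 31 members were lower in Bin-2 than in 8093 and 2 were higher, against 9.54% and 6.83% of all genes.

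Plk1, the kinase that drives entry into and passage through mitosis, went from 9.58, 9.50 and 9.62 to 8.36, 8.43 and 8.35 in 8093, a fall to 0.438 of the start. In Bin-2 it read 9.22, 9.01 and 8.92 and then 9.05, 9.0 and 9.0, and the difference was 1.15 ± 0.19 (adjusted p = 0.000232). The groups of Plk1 overlap in Bin-2 and do not in 8093. Kif2c, a kinesin that depolymerises microtubules at kinetochores, fell from 8.90, 8.84 and 8.82 to 8.21, 8.14 and 8.20 in 8093 and rose from 8.64, 8.61 and 8.54 to 9.04, 8.83 and 8.97 in Bin-2 (1.01 ± 0.14, adjusted p = 2.39e-05). It was called in opposite directions in the 2 lines, as were Ckap2l (1.23), a spindle protein gene, and Kif20b (0.91), a kinesin gene of cytokinesis. The spindle kinase gene Aurka (0.86), the cytokinesis kinesin genes Kif20a (0.88) and Kif23 (0.66), and the checkpoint kinase genes Ttk (0.79) and Bub1b (0.76) were called too.

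Many promoters of mitotic genes carry a CHR element, which is bound by the DREAM and MMB complexes, and a CCAAT box, which is bound by NF-Y. Windows from 250 bases before to 50 bases after the start were found for 23 of the 31 members (RefSeq, GRCm38.p6) and searched on both strands. A CHR element (TTTGAA or TTCGAA) was found in 17 (73.9%), against 19% of the 15614 promoters of all genes tested that had a window, and CCAAT in 17 (73.9%) against 41.7%. CCAAT was not particular to this list, since 16 of 16 cholesterol synthesis promoters held it (100%). A CHR element was found in 2 of those 16 (12.5%) and in 6 of 16 mast cell promoters (37.5%). Among members with a called difference both motifs were found in 9 of 10, and among the others in 8 of 13 (61.5%), each counted separately. Stretches of 100 bases are shown for 4 members whose difference was called and whose motifs lie close together (Ttk, chr9:83834609-83834708, plus strand; Kif23, chr9:61946780-61946879, minus strand; Ube2c, chr2:164769839-164769938, plus strand; Prc1, chr7:80294371-80294470, plus strand). They are written along the gene, with matches to either motif on either strand in capitals.
Ttk: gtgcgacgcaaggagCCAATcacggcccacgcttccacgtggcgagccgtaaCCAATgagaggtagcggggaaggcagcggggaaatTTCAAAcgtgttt
Kif23: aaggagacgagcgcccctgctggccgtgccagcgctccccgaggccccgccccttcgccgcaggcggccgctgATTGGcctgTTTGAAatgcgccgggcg
Ube2c: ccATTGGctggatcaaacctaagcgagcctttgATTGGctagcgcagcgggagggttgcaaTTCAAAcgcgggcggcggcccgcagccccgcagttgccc
Prc1: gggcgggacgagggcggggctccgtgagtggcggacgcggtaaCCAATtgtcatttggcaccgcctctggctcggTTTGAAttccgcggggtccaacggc
The nearest CCAAT box and CHR element are 30 bases apart in Ttk, 4 in Kif23, 23 in Ube2c and 27 in Prc1. A match to these letters does not show that a factor binds there.

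DNA replication genes fell in both lines. Of 36 measured members, 32 fell in 8093 and 21 in Bin-2 (medians -0.61 and -0.43). The limma test of the difference called 0 of them (5 were higher and 0 lower at an unadjusted p below 0.05), and 4 were called higher after scaling. The difference was positive in 28 members and negative in 8. The changes per array were higher in Bin-2 without overlap in 16 of 36 and lower in 0, against 14.5% and 19.9% of all genes. The number of falls depended on scaling. After quantile normalization 25 fell in 8093 and 9 in Bin-2, and after scaling to one interquartile range 24 and 11. Rrm2, a subunit of ribonucleotide reductase, went from 9.33, 9.48 and 9.20 to 8.26, 8.15 and 8.30 in 8093 and from 8.94, 8.96 and 8.84 to 8.15, 8.06 and 7.89 in Bin-2 (difference 0.22 ± 0.25, adjusted p = 0.729). The promoters of these genes held a CHR element in 7 of 29 (24.1%) and CCAAT in 17 of 29 (58.6%).

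With the deposited values, respiratory chain and proteasome genes also moved alike. Of 25 respiratory chain genes 15 fell in 8093 and 18 in Bin-2, and of 22 proteasome genes 14 and 12 fell. Under the 2 rescalings the falls of proteasome genes numbered 7 and 6 in 8093 and 6 and 1 in Bin-2. The difference was called in 0 of either list (in each, 1 gene was higher and 0 lower at an unadjusted p below 0.05), with medians of -0.02 and 0.01. The first was 0.04 after quantile normalization and 0.28 after scaling, and the second 0.05 and 0.23, and scaling gave 1 positive call in each list. Under those rescalings the falls of the respiratory chain genes numbered 13 and 11 in 8093 and 5 and 3 in Bin-2. Of 30 ribosome biogenesis genes, 0 were called with the deposited values (6 higher and 1 lower at an unadjusted p below 0.05) and 7 were called higher after scaling.

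**Figure D3:**
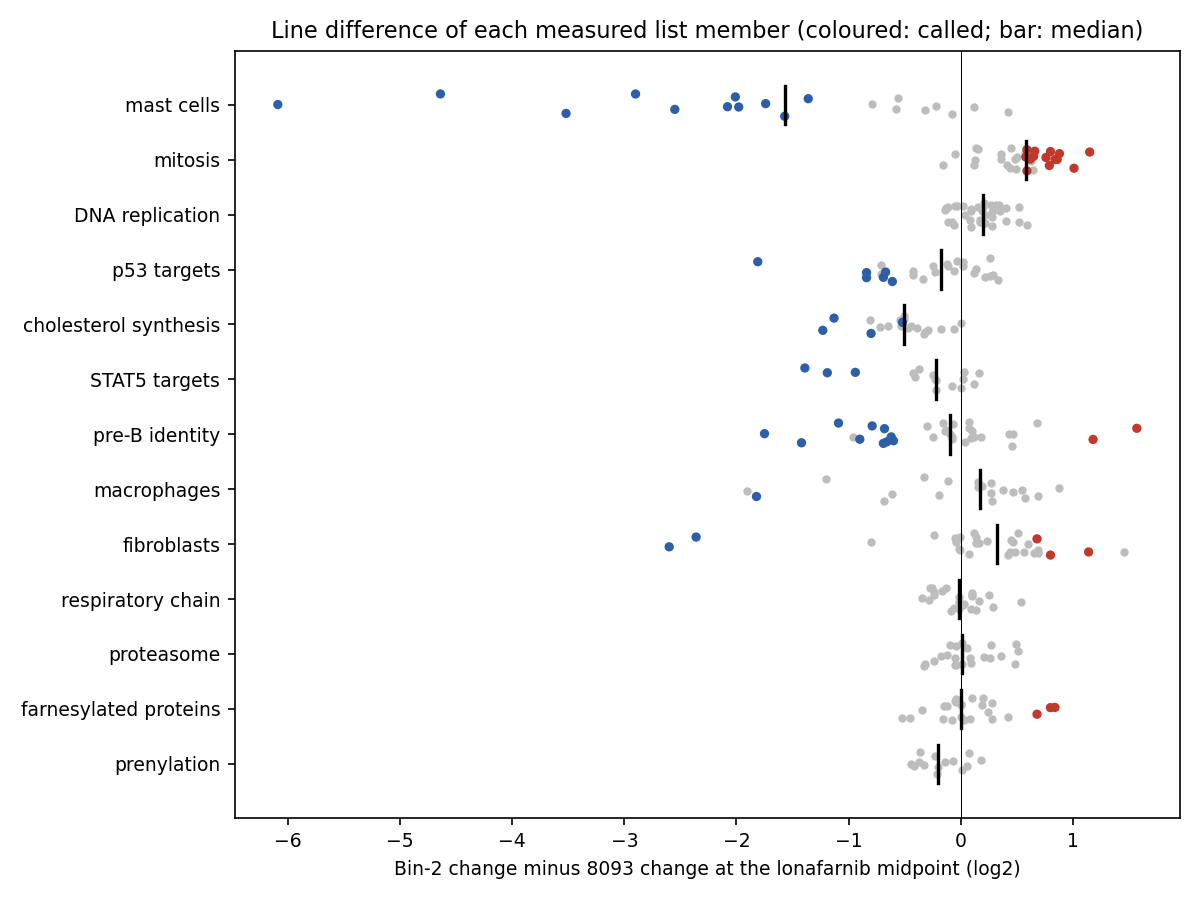
Bin-2 change minus 8093 change (horizontal axis, log2) of each measured member of 13 gene lists, with called members coloured (red positive, blue negative), the rest grey and the list median as a bar. The mast cell median lies at -1.57 and the mitosis median at 0.58, while those of the respiratory chain, proteasome and farnesylated protein lists lie near 0.

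Cholesterol synthesis genes fell in Bin-2. All 20 measured members were called as fallen there (median -0.70), against 3 fallen (Fdps, Sqle and Stard4) and 1 risen (Tm7sf2) in 8093 (median -0.24). After quantile normalization 14 fell in Bin-2, and after scaling 15. Before drug 13 of the 20 were higher in Bin-2 than in 8093, and 0 lower, where 3264 of all genes (16.4%) were called, 6.83% as higher and 9.54% as lower. The list mean was 7.95 to 8.03 on 8093 start arrays, 7.74 to 7.89 at its midpoint, 8.46 to 8.53 on Bin-2 start arrays and 7.71 to 7.82 at its midpoint, so that the lines differed in range at the start and overlapped at the midpoint. For the difference 4 members were called lower and 0 higher (median -0.51). The changes per array were lower in Bin-2 without overlap in 16 of 20, as in 19.9% of all genes.

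Insig1, which holds the SREBP escort protein in the endoplasmic reticulum and is itself an SREBP target, read 8.90, 8.81 and 8.76 and then 8.81, 8.79 and 8.80 in 8093. In Bin-2 it fell from 9.66, 9.72 and 9.67 to 8.60, 8.66 and 8.32, to 0.449 of the start (difference -1.13 ± 0.17, adjusted p = 9.42e-05). Tm7sf2, a sterol reductase gene, rose from 6.65, 6.78 and 6.44 to 7.26, 7.20 and 7.07 in 8093 and fell from 7.26, 7.06 and 7.11 to 6.37, 6.65 and 6.38 in Bin-2 (-1.23 ± 0.15, adjusted p = 6.71e-06). These members kept their call in all 21 alternatives. Lss (-0.80) and Dhcr7 (-0.52), which act in the later steps, were close to the threshold (adjusted p = 0.0442 and 0.0416), and 2 members were called with the replicate term, under either rescaling, and without replicate 2 or 3 of either start group, replicate 1 or 3 of the 8093 midpoint, or replicate 2 or 3 of the Bin-2 midpoint.

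Other lipid genes differed as well. Scd1, the desaturase that makes monounsaturated fatty acids, rose from 8.78, 8.65 and 8.84 to 9.81, 9.69 and 9.58 in 8093 and fell from 6.19, 6.38 and 7.32 to 4.95, 5.32 and 4.96 in Bin-2 (-2.49 ± 0.34, adjusted p = 2.43e-05). The start gap of the lines (Bin-2 minus 8093 -2.13) therefore widened. Abcg1, a sterol exporter gene, fell by 0.98 in Bin-2 and its change of -0.27 in 8093 was not called (-0.71 ± 0.15, adjusted p = 0.00594). Ppargc1a, a coactivator gene of mitochondrial biogenesis, rose from 6.16, 6.06 and 5.88 to 8.47, 8.43 and 8.05 in 8093 and lay between 3.59 and 4.13 on the 6 Bin-2 arrays, which is near the lower quartile of all genes, 4.08 (-2.34 ± 0.29, adjusted p = 5.09e-06).

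Some targets of the tumour suppressor p53 rose in 8093 and differed from Bin-2. Of 26 measured members, 16 rose in 8093 and 0 fell, while in Bin-2 8 rose and 2 fell (Sesn1 and Rps27l). At the start 8 of the 26 members were lower in Bin-2 than in 8093 and 2 were higher, against 9.54% and 6.83% of all genes. For the difference 6 were called lower and 0 higher (median -0.17), and 4 were called lower under either rescaling, when 12 and 13 rose in Bin-2. The death receptor gene Eda2r went from 3.97, 3.61 and 3.82 to 5.72, 5.03 and 5.46 in 8093 and from 4.01, 3.77 and 3.70 to 4.04, 3.56 and 3.26 in Bin-2 (-1.81 ± 0.25, adjusted p = 3.41e-05). Outside the 8093 midpoint these signals lay under the lower quartile of all genes, 4.08. The size of the Eda2r difference therefore rests on signals near background. Mdm2, the ubiquitin ligase that restrains p53, went from 8.07, 8.17 and 7.96 to 9.0, 8.68 and 8.77 in 8093 and from 8.14, 8.37 and 8.49 to 8.37, 8.28 and 8.52 in Bin-2 (-0.69 ± 0.16, adjusted p = 0.00872). Mdm2 and Trp53inp1 (-0.84 ± 0.15, adjusted p = 0.000771) lost the call after scaling (adjusted p = 0.0927 and 0.169) and with the replicate term, under which 1 member of the list was called. Other targets rose in both lines with no call for the difference: Ccng1 by 1.03 and 0.80, Zmat3 by 0.85 and 1.14, Psrc1 by 0.95 and 1.07, and Sesn2 by 0.70 and 0.96 in 8093 and Bin-2.

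Of 15 measured BCL2 family genes, 3 were called lower: Bcl2 (-0.65), which blocks apoptosis, and the BH3-only death genes Pmaip1 (-0.67) and Bcl2l11 (-0.60). All 3 rose in 8093, by 0.63, 0.59 and 0.61, and their values in Bin-2 were -0.02, -0.09 and 0.00, none of them called. Under either rescaling the list had 2 higher and 1 lower calls in place of 0 and 3. With the replicate term, and without 8093 start replicate 3 or 8093 midpoint replicate 1, 0 members were called, and 1 was called without 8093 start replicate 1, Bin-2 start replicate 3 or Bin-2 midpoint replicate 2.

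A few STAT5 feedback genes rose in 8093. Of 16 measured targets, 4 rose in 8093 (Pim2, Cish, Socs3 and the cyclin gene Ccnd2) with a list median of 0.04. In Bin-2 0 rose and Ccnd3 fell, which became 1 risen and 0 fallen after quantile normalization and 3 and 0 after scaling. For the difference 3 were called lower, a number that was the same without any 1 array and under either rescaling. Pim2, a survival kinase gene, went from 7.36, 7.45 and 7.55 to 8.78, 8.57 and 8.69 in 8093 and from 7.61, 7.13 and 7.52 to 7.16, 7.35 and 7.26 in Bin-2 (-1.39 ± 0.16, adjusted p = 1.27e-06). Cish, a cytokine-induced inhibitor of STAT5 signalling, went from 6.60, 6.53 and 6.47 to 7.51, 7.77 and 7.41 in 8093 and from 6.11, 6.51 and 6.65 to 6.25, 6.41 and 6.12 in Bin-2 (-1.19 ± 0.20, adjusted p = 0.000296). In both genes the 8093 midpoint arrays lay above all others of the comparison. Socs3 was called with its brighter probeset (-0.94) and differed by 0.12 with the other (adjusted p = 0.179 for their mean), whereas Socs2 was not called (-0.25 ± 0.16, adjusted p = 0.473).

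FOXO targets, which are induced when PI3K and AKT signalling is low, gave 6 lower and 2 higher calls among 25 measured. The PI3K inhibitor gene Pik3ip1 (-1.05 ± 0.17, adjusted p = 0.000303), the glucose uptake regulator gene Txnip (-0.97 ± 0.16, adjusted p = 0.00024) and the antiproliferative gene Btg1 (-0.92 ± 0.20, adjusted p = 0.00662) rose in 8093. In the opposite direction were Rag1 and Il7r, described with the pre-B genes. Between 4 and 5 members were called under either rescaling, with the replicate term, and without replicate 1 or 3 of the 8093 start or midpoint or replicate 3 of the Bin-2 start. Myc was not called (0.16 ± 0.21, adjusted p = 0.775, 95% interval -0.28 to 0.60).

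Genes of pre-B identity moved in different directions. Of 33 measured members, 2 were called higher and 10 lower in the difference (median -0.10), 6 rose and 8 fell in 8093, and 0 rose and 9 fell in Bin-2. In Bin-2 these were 2 and 6 after quantile normalization and 3 and 4 after scaling, when the median there turned from -0.18 to 0.04. The median of the difference turned to 0.06 after scaling, with 3 higher and 4 lower, and 7 members were called without 8093 start replicate 2. Rag1, a subunit of the V(D)J recombinase, fell from 8.91, 9.15 and 8.87 to 7.18, 7.07 and 7.61 in 8093, to 0.310 of the start, and read 9.24, 9.0 and 9.10 and then 9.02, 8.84 and 9.11 in Bin-2 (1.57 ± 0.30, adjusted p = 0.00166). The interleukin 7 receptor gene Il7r fell from 10.57, 10.66 and 10.39 to 9.03, 8.88 and 9.24 in 8093 and read 10.91, 10.92 and 10.99 and then 10.68, 10.48 and 10.74 in Bin-2 (1.18 ± 0.23, adjusted p = 0.00202). Neither gene differed at the start beyond 0.40.

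Spib, a transcription factor gene of the B lineage, moved the other way. It rose from 6.98, 7.0 and 7.22 to 8.18, 7.95 and 7.99 in 8093 and fell from 6.63, 5.98 and 6.30 to 5.72, 5.32 and 5.55 in Bin-2 (-1.75 ± 0.19, adjusted p = 8.14e-07). Blk, a SRC family kinase gene of the pre-B receptor pathway, rose from 9.40, 9.55 and 9.30 to 10.50, 10.59 and 10.62 in 8093, the level that Bin-2 already had before drug (10.56, 10.58 and 10.45), and read 10.29, 10.23 and 10.26 at the Bin-2 midpoint (-1.42 ± 0.17, adjusted p = 2.02e-06). The terminal transferase gene Dntt (-1.09) and Vpreb3 (-0.90) were called with the deposited values and lost the call after scaling (adjusted p = 0.235 and 0.137). MHC class II genes had 2 of 10 members called lower, H2-Ob (-0.94), an inhibitor of peptide loading, and H2-DMa (-0.91), a subunit of the peptide loading factor.

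Several of the largest differences were in genes that stood far apart between the lines at the start. Gli3, a Hedgehog pathway transcription factor gene, read 6.49, 6.50 and 6.61 at the 8093 start and 4.32, 4.68 and 3.87 at its midpoint, and lay between 3.74 and 4.08 on all 6 Bin-2 arrays (2.37 ± 0.24, adjusted p = 2.56e-07). Lin28b, an RNA-binding regulator of let-7 microRNAs, went from 6.34, 6.14 and 5.81 to 4.11, 3.67 and 3.97 in 8093 and lay between 3.77 and 4.18 in Bin-2 (2.19 ± 0.22, adjusted p = 2.56e-07). Spats2 (2.32) and Lyplal1 (1.84) also fell in 8093 from higher starts, but stayed above Bin-2 at the midpoint (Bin-2 minus 8093 -1.58 and -1.46). Lyplal1 was called as risen in Bin-2 (0.45 ± 0.13, adjusted p = 0.0189), whereas the Spats2 change there was not called (0.38). The Bin-2 signals of Gli3 and Lin28b were near the lower quartile of all genes, so a fall there could hardly have been measured. In reverse, Trf, the transferrin gene, stood at 9.98, 9.98 and 9.83 at the Bin-2 start and at 9.19, 9.29 and 9.22 at its midpoint, and rose from 5.53, 5.54 and 5.87 to 8.27, 7.80 and 7.96 in 8093 (-3.06 ± 0.26, adjusted p = 1.25e-08). The cystine transporter gene Slc7a11, which read 7.86, 8.17 and 8.06 at the Bin-2 start, rose from 4.16, 4.38 and 4.21 to 7.49, 5.84 and 6.50 in 8093 (-2.62 ± 0.52, adjusted p = 0.00256).

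How far start levels and the difference go together was read from the nilotinib start arrays, which are other plates of both lines. Of the 670 negative genes, 230 (34.3%, and 19.9% of the 1154 genes called higher in Bin-2 on those arrays) were higher in Bin-2 there, where 5.79% of all genes were (2153 genes, 10.8%, were called in either direction), and 63 (9.4%, and 6.31% of 999) were higher in 8093, where 5.01% were. Of the 168 positive genes, 45 (26.8%, and 4.5% of 999) were higher in 8093 and 6 (3.57%, and 0.52% of 1154) in Bin-2. By definition, the 230 and 45 genes are those with a difference opposite in sign to the start gap, and the 63 and 6 those with the same sign. Examples of opposite sign on those arrays were Trf, 4.35 higher in Bin-2, and Spats2 and Lyplal1, 3.99 and 3.47 lower in Bin-2.

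Besides Spib, Scd1, Tm7sf2 and Trf, genes that rose in 8093 and fell in Bin-2 included Kynu, an enzyme gene of tryptophan breakdown, and Il18r1, the interleukin 18 receptor gene. Kynu went from 5.67, 5.51 and 5.65 to 6.97, 7.01 and 6.81 in 8093 and from 6.09, 6.52 and 6.49 to 5.89, 5.37 and 5.43 in Bin-2 (-2.13 ± 0.26, adjusted p = 5.88e-06). Il18r1 went from 6.80, 6.96 and 6.72 to 8.11, 8.0 and 8.03 in 8093 and from 7.22, 7.39 and 7.13 to 6.70, 6.54 and 6.34 in Bin-2 (-1.94 ± 0.21, adjusted p = 4.26e-07). The endoplasmic reticulum chaperone gene Dnajb9 did so too (0.60 and -0.54, difference -1.15 ± 0.27, adjusted p = 0.00946), and it lost the call with the replicate term. With Dnajb9, Xbp1 (-0.62) and Derl3 (-0.81) were called among 23 genes of the unfolded protein response, and Derl3 kept its call in 11 of 21 alternatives. Of these 23 genes, 6 fell and 0 rose in Bin-2. These numbers were 1 and 1 after quantile normalization and 1 and 8 after scaling, when 2 members were called higher and 2 lower in the difference.

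Among transcripts of the drug's target pathway, genes of farnesylated proteins gave calls for the difference and those of prenylation enzymes gave 0. Of 25 measured genes of farnesylated proteins, 3 were called higher and 0 lower, against 0.843% and 3.36% of all genes. The 3 were the kinetochore genes Cenpe (0.84 ± 0.17, adjusted p = 0.00256) and Cenpf (0.80 ± 0.18, adjusted p = 0.00792) and the nuclear lamina gene Lmnb1 (0.68 ± 0.18, adjusted p = 0.0251). Cenpe and Cenpf are also in the mitosis list. Cenpe went from 7.74, 7.52 and 7.66 to 7.04, 7.0 and 7.13 in 8093 and from 7.63, 7.71 and 7.81 to 8.08, 7.74 and 8.10 in Bin-2. With the replicate term 1 of the 3 was called. Of 14 prenylation enzyme genes, limma called 0 (0 higher and 3 lower at an unadjusted p below 0.05; median -0.21), 3 fell in 8093 (Fdps, Rabggtb and Pde6d) and 4 in Bin-2 (Fdps, Chml, Rabggta and Rabggtb). Under either rescaling 0 fell in 8093, and 3 (quantile) and 2 (scaled) fell in Bin-2. The farnesyltransferase subunit genes Fnta (-0.14 ± 0.19, adjusted p = 0.791) and Fntb (0.06 ± 0.18, adjusted p = 0.914) were not called in either line or between lines, nor were Nras (-0.35 ± 0.14), Lmna (0.24 ± 0.29) and Rhob (-0.08 ± 0.18). Galectin genes gave 0 calls among 9 (0 higher and 2 lower at an unadjusted p below 0.05). Lgals3, the galectin 3 gene, rose from 5.71, 6.25 and 6.31 to 8.26, 7.90 and 7.80 in 8093 and from 5.89, 6.12 and 5.88 to 8.31, 8.04 and 8.24 in Bin-2, and the difference was 0.33 ± 0.49 (adjusted p = 0.806, 95% interval -0.67 to 1.33).

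The remaining lists held few calls each. The share called was 15.8% in the NRF2 and metallothionein list and 12.5% in the transporter list, against 4.20% of all genes. In the others it was at most 6.25%. The metallothionein genes Mt1 (1.03) and Mt2 (1.73), which bind zinc, were the positive calls among 19 NRF2 and metallothionein genes. Both lost the call without any 1 of 7 arrays: replicate 1 or 3 of the 8093 start, replicate 2 or 3 of the 8093 midpoint, replicate 2 of the Bin-2 start, and replicate 2 or 3 of the Bin-2 midpoint. The chaperone gene Hsph1 was called higher (0.78 ± 0.15, adjusted p = 0.0012) among 17 heat shock genes after a fall of 0.80 in 8093. Single negative calls were Vegfa (-0.85) among 23 glycolysis and hypoxia genes, Spry2 (-0.87) among 20 ERK feedback genes, Ctsg (-1.37) among 16 granulocyte genes, Xaf1 (-0.71) among 22 interferon-stimulated genes and Ccr7 (-0.64) among 21 adhesion and homing genes. Xaf1 kept its call in 11 of 21 alternatives and Ccr7 in 9, whereas Vegfa, Spry2 and Ctsg kept theirs in all 21. Ctsg lay under the lower quartile of all genes, 4.08, on each 8093 array of the comparison. Slc7a11 was the single call among 26 genes of the ATF4 stress response and the negative call of the NRF2 list. The drug and lipid transporter genes gave 2 negative calls among 16, Abcg1 and Abcc4 (-0.88), while the drug efflux pump gene Abcb1a was not called (-0.13 ± 0.24). Limma called 0 of 12 red cell and megakaryocyte genes, 0 of 27 lysosome and autophagy genes, 0 of 13 genes of the MYC network, 0 of 19 NF-kappaB targets and 0 of 3 Y-linked genes kept as a background reference. At an unadjusted p below 0.05 these lists held 0, 5, 1, 2 and 0 genes in that order.

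The same difference of changes in the nilotinib courses, which come from other arrays, was called in 5188 genes (26.0%), of which 3591 were positive (18.0%) and 1597 negative (8.01%). Of the 168 genes with a positive difference under lonafarnib, 73 (43.5%, and 2.03% of 3591) were positive and 17 (10.1%, and 1.06% of 1597) negative under nilotinib. Of the 670 negative genes, 162 (24.2%, and 10.1% of 1597) were negative and 129 (19.3%, and 3.59% of 3591) positive. A test of the line difference under lonafarnib against that under nilotinib called 4055 genes (20.3%), of which 1036 were positive (5.20%) and 3019 negative (15.1%).

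Mast cell genes differed between lines under both drugs, and more so under nilotinib. Under nilotinib 18 of 19 were called lower in Bin-2, and 16 of 19 were called in the test between drugs. The line difference of Cpa3 was -8.62 ± 0.36 under nilotinib and -6.09 ± 0.36 under lonafarnib (difference between drugs 2.53 ± 0.52, adjusted p = 0.000857). For mitosis genes, 29 of 31 were called higher under nilotinib (median 1.04), with Plk1 at 0.84 and Kif2c at 1.11, and the drugs were not called apart for either gene, although 9 of the 31 were called lower in the test between drugs (median -0.37). Gli3, Spats2, Lin28b and Lyplal1 had line differences of 2.30, 2.78, 1.89 and 2.44 under nilotinib, and were not called apart either. DNA replication genes, of which 0 were called under lonafarnib, were higher in the nilotinib difference in 34 of 36.

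Other genes differed between lines under lonafarnib and were called apart from nilotinib. Timp3 had a line difference of 0.11 ± 0.22 under nilotinib (difference between drugs -2.70, adjusted p = 1.61e-06) and Eda2r one of 0.17 ± 0.25 (-1.98, adjusted p = 0.000266). Pim2 was opposite under nilotinib, at 1.06 ± 0.16 (-2.45, adjusted p = 4.41e-08). Rag1 (0.08 under nilotinib, adjusted p between drugs = 0.0126), Tm7sf2 (0.13, adjusted p = 8.72e-05), Insig1 (-0.44, adjusted p = 0.043), Mdm2 (0.18, adjusted p = 0.00596) and Spib (0.54, adjusted p = 2.66e-06) were called apart as well. Of 20 cholesterol synthesis genes 1 (Ebp) was called, as higher, in the nilotinib line difference. The test between drugs called 4 of the 20 lower and 0 higher, against 15.1% and 5.20% of all genes. The list mean also dropped under nilotinib, from 8.47 to 8.61 at the start to 8.01 to 8.08 at the midpoint in Bin-2. In 8093 it went from 7.999 to 8.04 at the start to 7.46 to 7.66 at the nilotinib midpoint. The nilotinib doses, days and viabilities differ from those of lonafarnib, and the part of these in the differences between drugs was not tested.

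**Figure D4:**
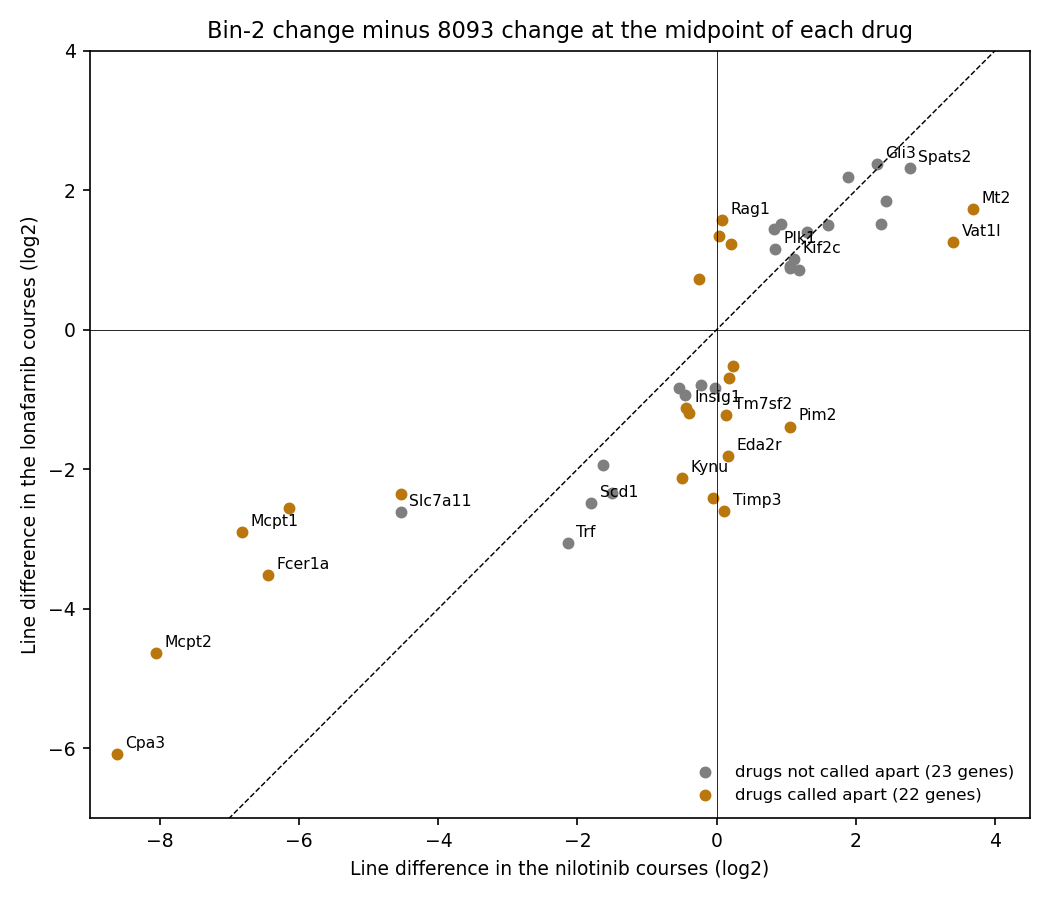
Bin-2 change minus 8093 change at the midpoint under nilotinib (horizontal axis, log2) and under lonafarnib (vertical axis, log2) for 45 named genes, with the dashed line marking equal values. The drugs were called apart for 22 genes (orange) and not for 23 (grey): Cpa3, Mcpt2, Fcer1a and Mcpt1 lie farther from 0 under nilotinib, and Timp3, Eda2r and Rag1 lie near 0 under nilotinib.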

How the data were processed

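Expression was measured on 34 Affymetrix Mouse Gene 1.0 ST arrays, per the labels. The authors deposited log2 probeset values, 1 column per array, ranging from 1.02 to 14.37. Partek is named in the submitters' processing notes, without version, and the normalization is not given in the sources used here. The labels give lonafarnib in mM in one place and µM in another, and µM is printed. Of 35557 probesets, 21789 with 1 gene symbol in GEO's platform annotation were kept (1621 had several, 12147 were not listed). For 999 genes with several probesets the brightest was used, which gave 19938 genes.

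Limma 3.58.1 (R 4.3.3) fitted 12 group means over 34 arrays with lmFit and eBayes (22 residual and 6.6986 prior degrees of freedom), and its two-sided p-values were corrected by Benjamini-Hochberg for all genes. Errors are SEs of that fit. Promoters came from RefSeq (GRCm38.p6). The scripts were tested on simulated data.

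The comparison, its members and the 34 gene lists were chosen with earlier results of these data known. Named genes were, by rule, up to 12 each way of largest called difference whose arrays did not overlap, up to 6 each way moving oppositely or alike, up to 4 leading members and 1 opposite member of each list, fixed genes, and up to 5 each way called apart between drugs. Fixed genes absent from the table were not analysed here. List members named beyond this were chosen after their values were seen, as was the choice of 4 promoters. Alternatives covered the arrays fitted, the replicate number, scaling, dim genes, the prior, array weights, probesets and each array left out. The number of arrays limits the precision.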

Additional observations from a re-analysis of the deposited data

Results flagged for a closer look

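The line difference at the midpoint was itself different between the drugs in 4055 of 19938 genes, by the limma test of that difference. Among the genes of largest line difference under lonafarnib whose drugs were called apart, the values of lonafarnib minus nilotinib were 1.49 for Rag1, 1.32 for Zcchc3 and 1.03 for Ckap2l, whose line differences under nilotinib were 0.08, 0.03 and 0.20. They were -1.96 for Mt2 and -2.14 for Vat1l, whose line differences were 3.69 and 3.40 under nilotinib. The mast cell genes had the largest line differences under nilotinib, and their values were 2.53 for Cpa3, 3.41 for Mcpt2, 2.93 for Fcer1a and 3.92 for Mcpt1. The value for Timp3 was -2.70, with a line difference of 0.11 under nilotinib. The cause of these differences was not tested.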

How the results depend on the processing

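Of 101 named genes 79 were called, 49 of these in every alternative that tested them, and 30 lost the call in at least one. The sign of the difference was reversed in 0 of the 79. Of the 22 others 0 became called, and the sign of some of them did change, as for Socs2 (-0.36 to 0.07) and Rhob (-0.18 to 0.10). The 838 calls became 1411 with array weights (346 higher, 1065 lower, 829 shared) and 516 to 890 when one array was left out, lowest without 8093 midpoint replicate 1, with 530 without 8093 start replicate 3. With the replicate number as a block within line 445 were called (99 higher, 346 lower, 399 shared). Deviations from the group mean correlated across genes between same-numbered start and midpoint plates at 0.141, 0.0901 and -0.0489 in 8093 and at -0.105, 0.0716 and 0.0873 in Bin-2. Plates with other numbers gave -0.218 to 0.127 in 8093 and -0.21 to 0.173 in Bin-2. The labels do not say that a number marks a shared lineage, so the numbers were not taken to pair the plates. No paired analysis was possible for the start comparison because the block lies within a line. The 8093 count was 3712 with array weights and 1123 to 2253 without one array (lowest without start replicate 1, 1252 without midpoint replicate 3). The Bin-2 count was 1891 after quantile normalization, 5064 with every probeset, which tests more features, and 1930 to 3302 without one array. With every probeset the nilotinib difference had 7806 calls and the test between drugs 6218. Without one array these were 5085 to 5363 and 3367 to 4374, and the start comparison 2272 to 3360. The causes were not tested.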

Other observations

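At the end of the lonafarnib courses, when viability was about 90%, the mast cell list mean of 8093 lay above its start range. Cpa3 averaged 8.99 over its 2 end arrays and 5.14 over the 3 of Bin-2, and the list mean was 5.28 to 5.46 on the 8093 end arrays, against 4.39 to 4.51 at the start. At the 8093 midpoint and then its end, Mcpt2 averaged 7.27 and 3.78, Mcpt1 5.82 and 3.31, Mcpt4 6.70 and 4.87, and Fcer1a 6.58 and 5.64. Kit averaged 5.95 in 8093 and 5.16 in Bin-2. Rag1 averaged 6.85 at the 8093 end and 8.91 at the Bin-2 end, while Il7r was at 9.98 and 11.19. Timp3 was at 7.42 and 4.07, and Scd1 at 9.91 and 4.64. Of the mitotic genes, Plk1 averaged 8.69 in 8093 and 8.75 in Bin-2 and Aurka 8.29 and 8.30. Lyplal1 averaged 7.83 in 8093, whereas Gli3 was at 4.64 and Lin28b at 4.54. Tm7sf2 was at 7.72 in 8093 and 7.06 in Bin-2. No test of the line difference at the end was made here.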
